A study of Ovis aries with 32 samples.

Results

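Sternal subcutaneous fat and epicardial fat, the layer between the myocardium and its serous cover, were compared within the same 4 adult female sheep (animal numbers 48, 185, 233 and 255), whose mothers had been treated with testosterone while pregnant. The comparison takes every library of these animals from those depots: 8 libraries, 1 of each depot per animal, of 32 in the series. The other libraries come from visceral and perirenal fat and from 4 control sheep. Mothers of the testosterone group received 100 mg testosterone propionate (1.2 mg/kg) in 2 ml corn oil by intramuscular injection, with 2 injections in each week of gestation days 30 to 90. At most 1 daughter per mother entered a group. All daughters, controls included, were fed for maintenance, lost their ovaries after their second breeding season, and then carried a 1 cm estradiol implant, 2 progesterone implants for 14 days and 4 estradiol implants of 30 mm for the last 18 h. The animals are thus ovariectomized sheep under a fixed steroid replacement, and the labels give neither breed nor exact age. RNA was read by 3′ end sequencing, and levels are given in CPM, read counts scaled to the size of the library.

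Fat depots differ in their embryonic origin as well as in what they store. Subcutaneous fat of the chest forms in the body wall. Epicardial fat forms beside the epicardium, the cell sheet covering the heart, which uses regulators such as TCF21, WT1 and GATA4. HOX genes encode position along the body axis and keep that pattern in adult fat cells and their progenitors, while Iroquois (IRX) and T-box (TBX) genes pattern body wall, limb and heart. Epicardial fat lies on the heart muscle with no fascia between them, is crossed by cardiac nerves and is thought to supply fatty acids to the myocardium. Sheep exposed to testosterone before birth serve as a model of polycystic ovary syndrome.

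Some libraries stood apart before any comparison. Total counts ran from 784135 to 6538042 in subcutaneous and from 1753228 to 5127310 in epicardial fat, with sheep 48 lowest in both. The subcutaneous library of sheep 48 held ARGLU1, a transcript that keeps introns, at 26343 CPM, where its 3 counterparts ranged from 1455 to 2341 CPM, and the 23 splicing transcripts on the same list summed to 68585 CPM there. The epicardial library of sheep 255 held the trunk gene HOXC6 at 94.6 CPM, where the other 3 had 0 to 2.21 CPM, and the kidney stroma gene FOXD1 at 13.3 CPM against 1.20 to 6.03 CPM. Perirenal libraries of these 4 animals carried 201 to 242 CPM of HOXC6 and 18.2 to 21.1 CPM of FOXD1. These are the 2 doubted libraries below.

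Markers of the neighbouring tissues were checked next. The 18 heart muscle genes in the table summed, in sheep 48, 185, 233 and 255, to 33768, 529, 4761 and 131 CPM in epicardial fat and to 210.3, 56.9, 96.4 and 102 CPM in subcutaneous fat. MYL2, MYL7, TNNT2, TNNI3, NPPA, NPPB and MYBPC3, which define heart muscle, were at 0 in all 4 subcutaneous libraries. Both depots carried the defining genes of fat: adiponectin (ADIPOQ) ranged over 4643 to 16923 CPM in subcutaneous and 2549 to 8777 CPM in epicardial fat. None of 11 kidney and adrenal or 15 skeletal muscle markers had enough counts to be tested.

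**Figure D1:**
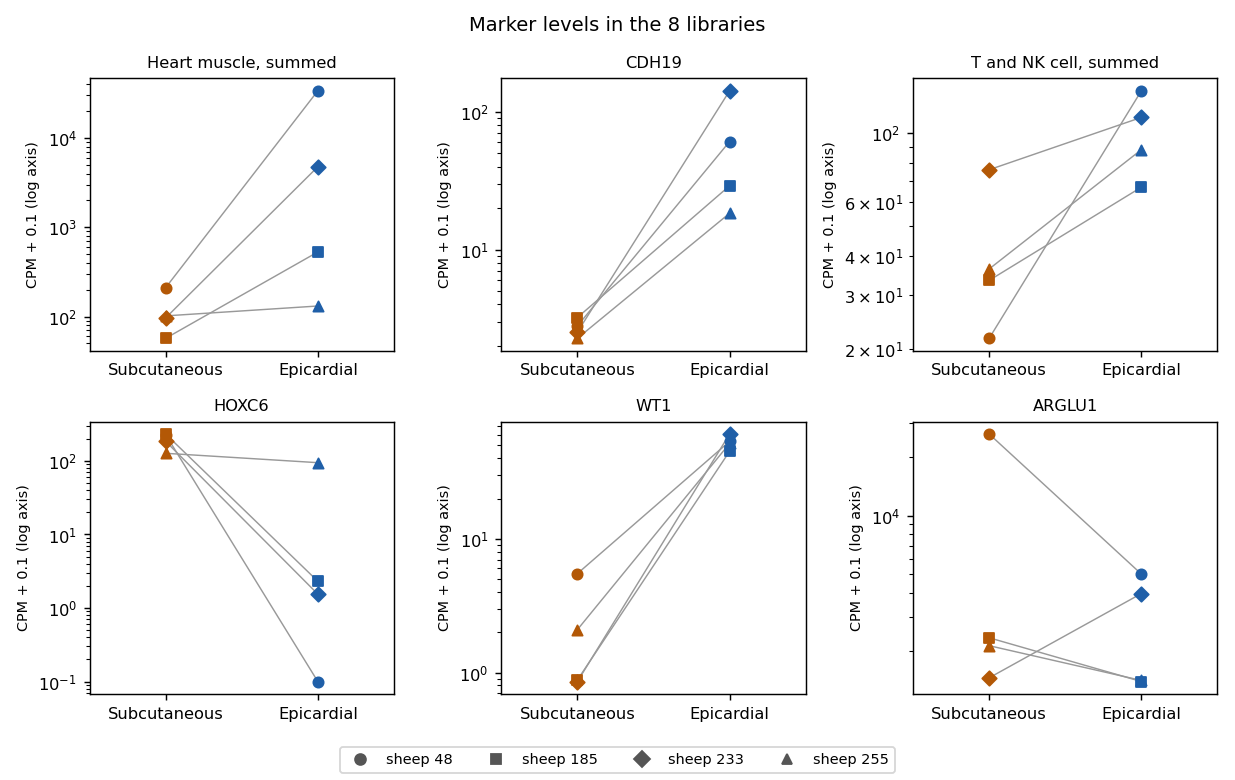
Level of heart muscle markers (summed), the Schwann cell gene CDH19, T and NK cell markers (summed), HOXC6, WT1 and ARGLU1 in the 8 libraries; the y axes are CPM + 0.1 on log scales, and a line joins the subcutaneous and the epicardial library of 1 sheep. Sheep 48 is highest for heart muscle in epicardial fat and for ARGLU1 in subcutaneous fat, and sheep 255 has HOXC6 at 94.6 CPM in epicardial fat.

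In all, 361 of 12357 genes tested differed between the depots (2.92%; edgeR quasi-likelihood test with the sheep as a block, Benjamini-Hochberg adjusted p under 0.05). Of these, 134 were higher in subcutaneous fat (1.08%) and 227 were lower (1.84%). These shares of all genes are the ones to set beside the counts of each gene list over the 4 sheep below. Log2 fold changes are subcutaneous over epicardial, ± is their standard error (SE), and each gene's change and adjusted p stand in parentheses after its levels. A gene is called higher or lower only where it passed that test. The median change was 1.64 over the higher and -2.33 over the lower genes, beside 0 over all genes tested, and the smallest that passed was 0.98 in size. Of the 134 and 227 genes, 108 and 178 had 4 subcutaneous libraries that did not overlap the 4 epicardial ones. Over all genes tested, 4.7% had every subcutaneous library above and 5.08% every one below the epicardial libraries. Because these are pieces of tissue, fewer cells of a type and less RNA per cell cannot be told apart in any of these values.

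Every animal showed the direction of every call: in each of the 4 sheep all 134 higher genes lay above, and all 227 lower genes below, its own epicardial level. The ratios were smallest in sheep 255. There the median log2 ratio of CPM + 1 was 1.31 over the higher and -1.64 over the lower genes, against 1.47 to 1.75 and -1.72 to -2.34 in the other 3 sheep. These ratios describe the genes that passed and are no separate test.

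The number of calls depended on which animals entered. It was 372 without sheep 48 (2.92%; 1.13% higher and 1.79% lower) and 258 without sheep 255 (2.19%; 0.662% higher and 1.53% lower). Without sheep 185 it was 104, and without sheep 233 it was 211. With no sheep block it was 224 (1.81%; 0.72% higher and 1.09% lower). When the subcutaneous library of sheep 48 and the epicardial library of sheep 255 were both left out and the other 3 against 3 compared with no block, 582 of 12448 genes passed (4.68%; 282 higher and 300 lower), of which 262 were among the 361 and had the same direction.

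Of 102 called genes followed in every alternative, 36 passed in each of the 4 fits without 1 sheep, and 30 of these passed also with no block and without the 2 doubted libraries. The 30 include the regulators IRX1, IRX2, EMX2, TWIST2 and HOXB8 on the subcutaneous side and TCF21, GATA4, GATA6, SOX9 and WT1 on the epicardial side. They also include the signalling genes BMP5, APCDD1, ADRB3, GRB14 and SLIT2, the Schwann cell gene CDH19, the early genes FOS, JUNB and EGR3. SCN7A, UNC13C, ANK3, DLK1, MGP, COL27A1, PPARGC1A, PRSS23, S100A4, C2CD2 and AUTS2 complete them. Each of the other 72 lost its call, or had too few counts to be tested, in at least 1 of these fits, and none changed direction.

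**Figure D2:**
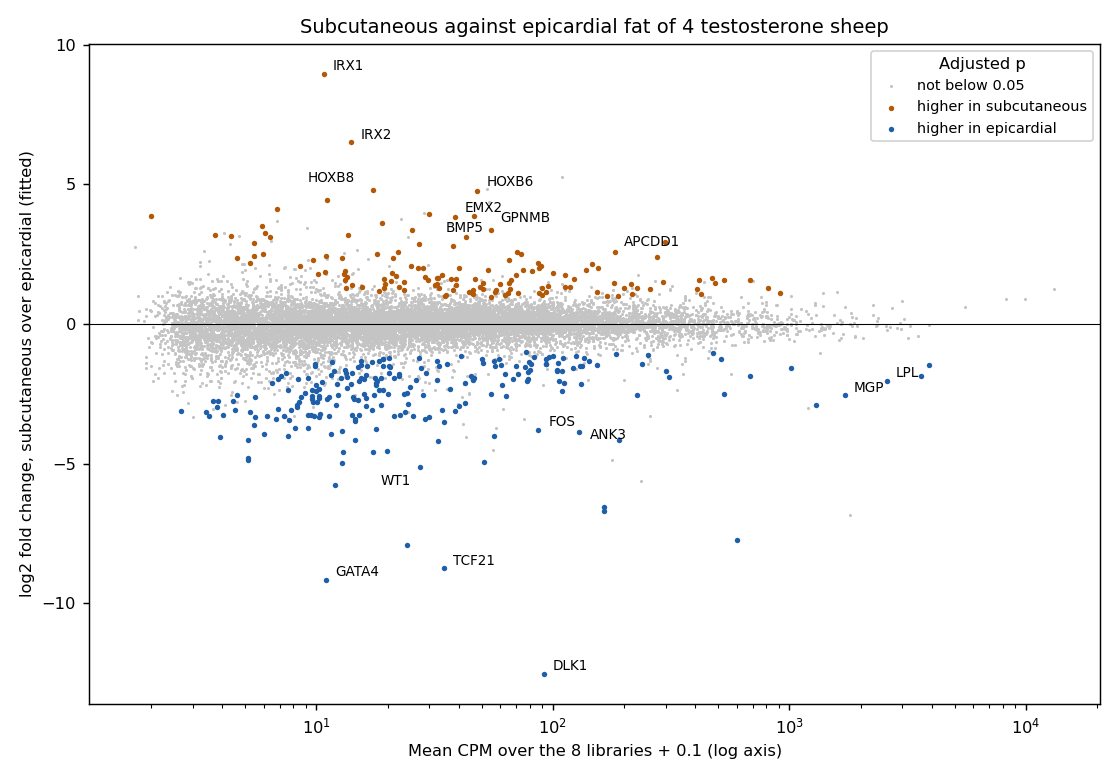
Fitted log2 fold change of subcutaneous over epicardial fat (y axis) against the mean CPM of the 8 libraries + 0.1 (x axis, log scale) for the 12357 genes tested, with genes at an adjusted p under 0.05 in colour. IRX1 and IRX2 are the called genes at the upper end, and DLK1, GATA4 and TCF21 those at the lower end; the fitted values of IRX1, DLK1 and GATA4 depend on the fit's prior, since each had no count in 1 depot.

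HOX genes of the trunk were higher in subcutaneous fat. HOXB6 stood at 119, 138, 58.4 and 54.1 CPM in subcutaneous and 1.2, 2.01, 1.44 and 8.84 CPM in epicardial fat in sheep 48, 185, 233 and 255, the order used for all such values below. Every subcutaneous library lay above every epicardial one, and sheep 255 had the highest epicardial value (4.75 ± 0.61, adjusted p = 0.00452). Its neighbour HOXB8 was at 66.04, 32.5, 14.7 and 21.5 CPM in subcutaneous and 0, 0.803, 0 and 2.44 CPM in epicardial fat. It was near 0 in epicardial fat except in sheep 255 (4.81 ± 0.64, adjusted p = 0.00569). HOXB7 (3.88 ± 0.57, adjusted p = 0.00861), HOXD8 (3.35 ± 0.47, adjusted p = 0.00735) and HOXB5 (4.10 ± 0.85, adjusted p = 0.036) passed as well, again with the highest epicardial value in sheep 255. Of 22 HOX genes tested, 5 were higher and 0 lower, 21 had a positive change, and the median was 3.16. The table holds 37 HOX genes, of which 8 had no count in the 8 libraries. In 16 of the 22 the depots did not overlap. Without sheep 233, HOXB6, HOXB7 and HOXB5 did not pass (adjusted p = 0.0923, 0.121 and 0.138).

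Several HOX genes with steep ratios in 3 of the sheep did not pass over all 4. HOXC8 stood at 226, 83.4, 59 and 51.2 CPM in subcutaneous and 0, 0.402, 0 and 35.2 CPM in epicardial fat. In sheep 48, 185 and 233 it was at or close to 0 in epicardial fat, whereas in sheep 255 the depots lay close together (5.04 ± 1.46, adjusted p = 0.147). HOXC9 was at 179, 72.2, 70.2 and 57.2 CPM in subcutaneous and 0.6, 0.402, 0 and 41 CPM in epicardial fat. It had the same split between sheep 255 and the rest (4.82 ± 1.37, adjusted p = 0.141), and so had HOXC6, at 228, 232, 185 and 127 CPM in subcutaneous and 0, 2.21, 1.44 and 94.6 CPM in epicardial fat (5.25 ± 1.43, adjusted p = 0.126). HOXA9 (3.98 ± 1.16, adjusted p = 0.149) and HOXA7 (3.77 ± 0.87, adjusted p = 0.0667) were at 20.3 and 22.4 CPM in the epicardial library of sheep 255 and at most 0.963 CPM in the other 3.

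Summed over the 37 genes, HOX transcripts came to 1452, 1001, 712 and 718 CPM in subcutaneous fat and to 33.0, 117, 53.9 and 373 CPM in epicardial fat. Sheep 255 had the highest epicardial value in 17 of the 22 genes tested. Without sheep 255, 12 of 19 HOX genes were higher, against 0.662% of all genes. Without the 2 doubted libraries it was 14 of 21, against 2.27% of all genes, and HOXC6 then passed at 6.88 ± 0.52 (adjusted p = 2.49e-04). Because the epicardial library of sheep 255 was doubted for its HOXC6 level, these counts without it are no separate test of HOX genes.

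Regulators of body wall and limb gave the list with the most members higher in subcutaneous fat. IRX1 stood at 37.7, 11.7, 26.5 and 9.05 CPM there and had no count in any epicardial library. At a pooled level of 17.8 CPM it was at least 83.4-fold higher, taking 3 counts over the 4 epicardial libraries as the floor (adjusted p = 0.00351). IRX2 was at 35.04, 12.5, 44.9 and 18.5 CPM in subcutaneous and 0, 0.402, 0 and 0.188 CPM in epicardial fat. As with IRX1, all 4 sheep were high in subcutaneous and at or near 0 in epicardial fat (6.50 ± 0.58, adjusted p = 0.00135). EMX2, a homeobox gene known from forebrain and urogenital development and on none of the lists, was at 175, 21.6, 42.4 and 53.05 CPM in subcutaneous and 4.201, 1.61, 2.41 and 8.09 CPM in epicardial fat. Sheep 48 was far above the other subcutaneous libraries, and none overlapped the epicardial ones (3.83 ± 0.42, adjusted p = 0.00308).

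TBX15, a T-box gene known from subcutaneous preadipocytes, was at 24.3, 36.4, 23.9 and 35.1 CPM in subcutaneous and 5.402, 12.1, 1.93 and 4.14 CPM in epicardial fat. The subcutaneous values varied little (2.50 ± 0.37, adjusted p = 0.00907). TWIST2, a repressor in mesenchymal progenitors, was at 20.2, 19.2, 25.4 and 21.2 CPM in subcutaneous and 2.401, 4.82, 2.89 and 5.83 CPM in epicardial fat, with even less spread (2.36 ± 0.35, adjusted p = 0.00867). EYA1, a transcriptional cofactor (3.26 ± 0.48, adjusted p = 0.00867), IRX5 (2.44 ± 0.54, adjusted p = 0.0459), the zinc finger homeobox gene ZFHX4 (2.13 ± 0.38, adjusted p = 0.0203) and TWIST1 (1.32 ± 0.25, adjusted p = 0.0267) were higher too. MEIS2, a partner of HOX proteins, was lower, at 39.1, 47.8, 30.6 and 35.7 CPM in subcutaneous and 129.6, 94.4, 135 and 95.7 CPM in epicardial fat. Its depots were well apart in every sheep (-1.56 ± 0.25, adjusted p = 0.0132).

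Of 21 body wall and limb regulators tested (34 in the table), 9 were higher and 1 lower, with a median of 1.26. TBX5, which patterns forelimb and heart, stood at 4.04, 7.01, 2.72 and 5.97 CPM in subcutaneous and 31.2, 16.9, 13.5 and 7.33 CPM in epicardial fat. The depots did not overlap, and the gene did not pass (-1.52 ± 0.43, adjusted p = 0.107). IRX3 was at 79.5, 111, 62.2 and 46.5 CPM in subcutaneous and 18.6, 16.7, 47.2 and 45.7 CPM in epicardial fat. Only the subcutaneous library of sheep 255 and the epicardial library of sheep 233 overlapped (1.26 ± 0.45, adjusted p = 0.208). Without sheep 255, IRX1, IRX2 and TWIST2 were the 3 of 20 members that were higher, and 0 were lower. Without the 2 doubted libraries 7 of 21 were higher, and MEIS2 and TBX5 were lower.

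Regulators of the heart field and the splanchnic mesoderm ran the other way. TCF21, which marks epicardial progenitors of fibroblasts, was at 2.696, 0, 0 and 0 CPM in subcutaneous and 73.8, 37.5, 89.05 and 73.9 CPM in epicardial fat. Its only subcutaneous counts were in sheep 48 (-8.75 ± 0.75, adjusted p = 0.00135). Visceral and perirenal fat of these sheep held means of 19.7 and 34.4 CPM of TCF21 and no count of GATA4. GATA4, a cardiac and epicardial transcription factor, had no count in subcutaneous fat and stood at 35.4, 16.9, 23.6 and 11.5 CPM in epicardial fat. At a pooled 18.0 CPM it was at least 100.5-fold lower in subcutaneous fat, against a floor of 3 counts over the 4 subcutaneous libraries (adjusted p = 0.00325). GATA6 was at 8.09, 3.38, 7.26 and 9.41 CPM in subcutaneous and 128, 31.5, 72.2 and 48.7 CPM in epicardial fat. Sheep 48 and 233 were highest in epicardial fat (-3.13 ± 0.30, adjusted p = 0.00153).

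SOX9, known from cartilage and heart valve progenitors, was at 4.04, 5.97, 4.39 and 4.89 CPM in subcutaneous and 45.01, 72.7, 51.5 and 41 CPM in epicardial fat. It varied little between sheep within either depot (-3.42 ± 0.27, adjusted p = 0.00103). TBX20, a cardiac T-box factor, was at 0, 0, 0.303 and 0.362 CPM in subcutaneous and 16.2, 13.2, 7.22 and 3.01 CPM in epicardial fat. Its epicardial values spanned a wide range and stayed above every subcutaneous one (-4.80 ± 0.72, adjusted p = 0.00923). Of 13 members tested (26 in the table), 0 were higher and 5 lower, 12 had a negative change, and the median was -1.74. The 5 passed without sheep 255 and without the 2 doubted libraries, while TBX20 did not pass without sheep 185 (adjusted p = 0.0512). In sheep 255, heart muscle transcripts summed to 131.1 CPM in epicardial and 101.6 CPM in subcutaneous fat. There TCF21, GATA4, GATA6 and SOX9 were at 73.9, 11.5, 48.7 and 41.0 CPM in epicardial and at 0, 0, 9.41 and 4.89 CPM in subcutaneous fat. That epicardial library is 1 of the 2 doubted ones, and the part of heart muscle in these genes was not tested. HAND2, a regulator of heart and limb, did not pass (-2.07 ± 0.56, adjusted p = 0.0932), and MEF2C (-0.19 ± 0.34, adjusted p = 0.855) and NR2F2 (-0.04 ± 0.30, adjusted p = 0.969) overlapped between depots.

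WT1, a transcription factor of epicardium and mesothelium, stood at 5.39, 0.779, 0.756 and 1.99 CPM in subcutaneous and 53.4, 44.98, 60.6 and 51.5 CPM in epicardial fat. All epicardial values lay close together and far above the subcutaneous ones (-5.12 ± 0.45, adjusted p = 0.00135). Visceral and perirenal fat of these sheep held means of 104.9 and 92.6 CPM, against 52.6 CPM in epicardial fat, so WT1 was not particular to it. WT1 was 1 of 4 tested mesothelial markers and the only one to pass. MSLN and CALB2, which define mesothelium, were at 0 in all 8 libraries, and UPK3B did not exceed 0.752 CPM. In visceral fat of these sheep too, MSLN did not exceed 0.296 CPM. The 13 markers, WT1 among them, summed to 72.9 to 102 CPM in epicardial and 18.96 to 40.8 CPM in subcutaneous fat.

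**Figure D3:**
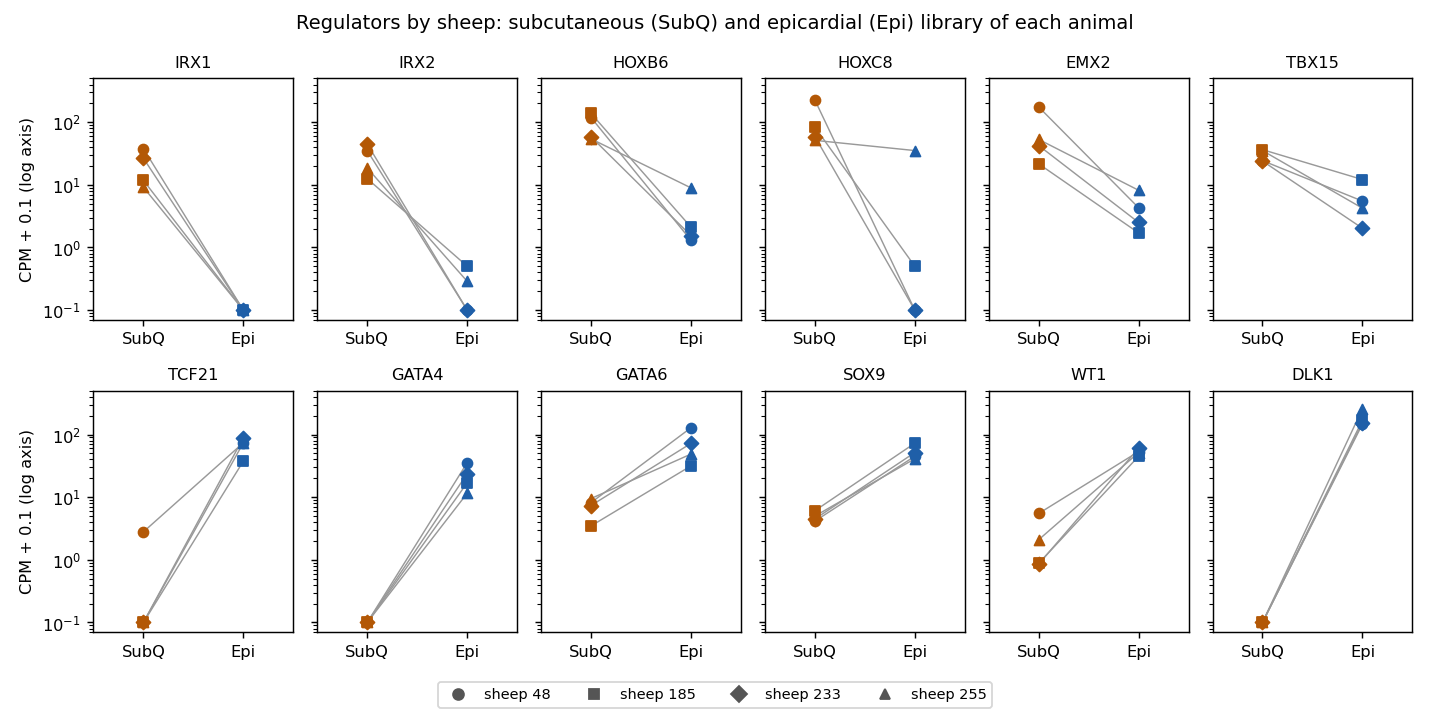
CPM + 0.1 (y axis, log scale) of 12 regulators in the subcutaneous (SubQ) and epicardial (Epi) library of each of 4 sheep, with a line joining the libraries of 1 animal; points that coincide at the bottom are libraries with no count. HOXC8 is near 0 in epicardial fat of 3 sheep but at 35.2 CPM in sheep 255, and DLK1 and GATA4 have no count in any subcutaneous library.

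Transcripts of nerves and their sheath cells were lower in subcutaneous than in epicardial fat. CDH19, a cadherin of Schwann cells, was at 2.696, 3.12, 2.42 and 2.17 CPM in subcutaneous and 60.6, 28.9, 142 and 18.2 CPM in epicardial fat. Subcutaneous values were low and alike, and sheep 233 was highest in epicardial fat (-4.18 ± 0.50, adjusted p = 0.00343). The neuregulin receptor ERBB3, on which Schwann cells depend, was at 2.696, 1.56, 1.21 and 2.35 CPM in subcutaneous and 19.8, 13.7, 38.99 and 9.03 CPM in epicardial fat, again highest in sheep 233 and with no overlap (-3.28 ± 0.53, adjusted p = 0.0126). The neurofilament gene NEFL, a part of axons, was at 0, 0.519, 0 and 0 CPM in subcutaneous and 82.2, 3.21, 98.2 and 9.21 CPM in epicardial fat. Sheep 48 and 233 stood far above the other epicardial libraries (-7.91 ± 0.95, adjusted p = 0.00351).

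The neuronal enzyme UCHL1 was lower as well (-3.26 ± 0.72, adjusted p = 0.047). Of 12 tested markers of Schwann cells and neurons 6 were lower and 0 higher, with a median of -2.76. S100B, which fat cells also express, did not pass, at 228, 554, 568 and 526 CPM in subcutaneous and 179, 189.8, 254 and 394 CPM in epicardial fat. Its sign was opposite to that of the 6 (0.87 ± 0.27, adjusted p = 0.142). The sum of the 17 markers in the table, S100B included, overlapped between depots (402 to 775 CPM in subcutaneous and 480 to 1216 CPM in epicardial fat). Without the 2 doubted libraries 5 of 12 markers were lower and S100B was higher, and NEFL and UCHL1 did not pass (adjusted p = 0.0956 and 0.109).

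SCN7A, ANK3 and UNC13C, which are on none of the gene lists and are named for their low adjusted p, were lower too. The sodium channel SCN7A, found in Schwann cells and sensory neurons, was at 2.696, 2.08, 1.66 and 0.362 CPM in subcutaneous and 33.6, 23.1, 40.4 and 12.04 CPM in epicardial fat. No libraries overlapped (-4.17 ± 0.38, adjusted p = 0.00143). Ankyrin G (ANK3), which anchors sodium channels in axons and is also used by heart muscle, stood at 22.9, 11.4, 8.17 and 9.41 CPM in subcutaneous and 558, 96.8, 255 and 70.2 CPM in epicardial fat. Its epicardial values had the same order of sheep as the heart muscle sum (-3.86 ± 0.40, adjusted p = 0.00246), and heart muscle's part in them was not tested. UNC13C, which primes synaptic vesicles, was lower in every sheep (-3.78 ± 0.39, adjusted p = 0.00246).

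Heart muscle transcripts in epicardial fat varied widely by sheep. The ventricular light chain MYL2 had no count in subcutaneous fat and stood at 5646, 1.61, 272 and 0.188 CPM in epicardial fat, at least 3963-fold lower in subcutaneous fat over the pooled libraries. Its epicardial counts came to 94.2% from sheep 48. Without that library the bound was 259-fold, and in sheep 255 the level was close to the floor of 3 counts. Cardiac troponin I (TNNI3), at 3163, 28.3, 468 and 0.752 CPM, and the light chain MYL7, at 1853, 70.7, 294 and 0.564 CPM, were likewise at 0 in every subcutaneous library. None of these had enough counts in enough libraries to be tested. Only 5 of the 18 heart muscle genes were tested, and TNNC1 (-6.69 ± 0.72, adjusted p = 0.00275) and ANKRD1 (-7.72 ± 1.36, adjusted p = 0.0329) were lower, with depots that overlapped through the low epicardial values of sheep 255. Without sheep 255, 14 were tested and 12 were lower, against 1.53% of all genes, while without the 2 doubted libraries 2 of 14 were lower. Members with no subcutaneous count, such as TNNT2, could enter these fits only through their epicardial counts. The number lower is therefore no separate support. Desmin (DES), which heart and smooth muscle share, was at 5.39, 2.08, 2.42 and 1.81 CPM in subcutaneous and 209.5, 8.03, 39.5 and 2.82 CPM in epicardial fat. It had the same order of sheep as heart muscle (-3.10 ± 0.63, adjusted p = 0.0329) and was the only 1 of 15 tested smooth muscle and pericyte markers to pass. The smooth muscle and pericyte sum was 10210 CPM in the subcutaneous library of sheep 48 and 2734 to 3215 CPM in the other 3.

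Other cell types gave few calls. Blood vessel endothelium gave 0 of 15 tested markers in either direction (median 0.37), lymphatic endothelium 0 of 7 and macrophages 0 of 10 (median 0.23). T and NK cell markers gave 0 of 9, and all 9 had a negative change (median -1.32). CD3E, a chain of the T cell receptor complex, was at 2.696, 5.46, 15.1 and 5.79 CPM in subcutaneous and 29.4, 11.8, 22.6 and 12.8 CPM in epicardial fat. Only the subcutaneous library of sheep 233 reached into the epicardial range (-1.27 ± 0.38, adjusted p = 0.132). In control sheep 8 of 8 tested members of that list were lower in subcutaneous fat, against 9.39% of all genes. Among 16 fibroblast and progenitor markers, the protease FAP was higher (2.49 ± 0.47, adjusted p = 0.0251) and the proteoglycan lumican (LUM) lower (-1.90 ± 0.37, adjusted p = 0.0286).

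Fat cell genes gave calls in both directions. CIDEC, which enlarges lipid droplets, was higher in subcutaneous fat, at 621, 915, 615 and 656 CPM in subcutaneous and 143, 322, 221 and 393 CPM in epicardial fat. No libraries overlapped (1.45 ± 0.28, adjusted p = 0.0274). Its relative CIDEA was at 123, 84.7, 195 and 158 CPM in subcutaneous and 26.4, 37.1, 10.1 and 54.7 CPM in epicardial fat. Epicardial values were most uneven, from sheep 233 at the bottom to sheep 255 at the top (2.18 ± 0.45, adjusted p = 0.0351). Lipoprotein lipase (LPL), which frees fatty acids from circulating lipoproteins, was lower, at 342, 1699, 885 and 1415 CPM in subcutaneous and 2577, 6762, 3288 and 3730 CPM in epicardial fat. Every sheep held more in epicardial fat, with sheep 185 highest in both depots (-2.04 ± 0.29, adjusted p = 0.00743). Without sheep 185, LPL, CIDEC and CIDEA did not pass (adjusted p = 0.0512, 0.133 and 0.0512), and with no block LPL had an adjusted p of 0.0686. CIDEC did not pass either without sheep 233 (adjusted p = 0.051) or with no block (adjusted p = 0.0502). CIDEA did not pass without sheep 48 or 255 (adjusted p = 0.114 and 0.0893).

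Of 14 identity genes tested, 2 were thus higher and 1 lower, with a median of 0.57. Fatty acid binding protein 4 (FABP4) was at 8428, 19591, 29342 and 16569 CPM in subcutaneous and 4854, 6247, 5583 and 15042 CPM in epicardial fat (1.25 ± 0.36, adjusted p = 0.117). Hormone-sensitive lipase (LIPE) was at 1485, 2599, 2664 and 1803 CPM in subcutaneous and 522, 1192, 716 and 1774 CPM in epicardial fat (1.15 ± 0.33, adjusted p = 0.11). In both genes only the subcutaneous library of sheep 48 and the epicardial library of sheep 255 overlapped, and without these 2 libraries FABP4 (1.96, adjusted p = 0.00632) and LIPE (1.53, adjusted p = 0.0311) passed. PPARG, the master regulator of fat cells (0.30 ± 0.25, adjusted p = 0.652), and perilipin (PLIN1, 0.18 ± 0.25, adjusted p = 0.803) overlapped between depots. Leptin (LEP) was at 138, 834, 111 and 72.1 CPM in subcutaneous and 184, 452, 191 and 315 CPM in epicardial fat. Sheep 185 was highest in both depots, which overlapped (-0.61 ± 0.43, adjusted p = 0.574).

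Receptors that start or brake fat breakdown were split between the depots. ADRB3, a beta-adrenergic receptor that raises cyclic AMP and drives lipolysis, stood at 1.35, 4.16, 1.21 and 3.26 CPM in subcutaneous and 15, 22.7, 24.1 and 44.2 CPM in epicardial fat. It was lower in subcutaneous fat in every sheep, with no overlap (-3.46 ± 0.39, adjusted p = 0.00317). Its relative ADRB1 was at 56.6, 63.4, 31.2 and 60.3 CPM in subcutaneous and 113, 177, 54.9 and 188 CPM in epicardial fat. The depots overlapped between animals, and within each animal subcutaneous fat was lower (-1.25 ± 0.24, adjusted p = 0.0256). ADRA1A, which signals through calcium, was lower as well (-1.38 ± 0.30, adjusted p = 0.0419).

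ADRA2A and the prostaglandin E receptor PTGER3, both of which lower cyclic AMP, were higher in subcutaneous fat. ADRA2A stood at 33.7, 88.3, 74.1 and 102 CPM in subcutaneous and 15.6, 36.5, 26.5 and 28.4 CPM in epicardial fat. Sheep 48 had the lowest values in both depots, which overlapped between animals (1.45 ± 0.23, adjusted p = 0.0126). PTGER3 was at 289.8, 438, 201 and 353 CPM in subcutaneous and 173, 162, 72.7 and 122 CPM in epicardial fat, with no overlap (1.30 ± 0.24, adjusted p = 0.021). Of 24 genes of lipolysis and adrenergic signalling tested, 3 were higher, CIDEC included, and 3 lower. Without sheep 255, CIDEC was the 1 higher and ADRB3 the 1 lower of 23. Without the 2 doubted libraries 5 of 24 were higher and 2 lower, with ADRB1 and PTGER3 not passing (adjusted p = 0.163 and 0.0928).

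Among genes tied to brown and beige fat, 3 of 13 were lower in subcutaneous fat and 1, CIDEA, was higher, with a median of -0.50. PPARGC1A, a coactivator of mitochondrial genes that heart muscle also uses, was at 5.39, 4.94, 4.69 and 2.54 CPM in subcutaneous and 97.8, 23.1, 43.3 and 12.4 CPM in epicardial fat. It was highest in the epicardial libraries of sheep 48 and 233, those with the most heart muscle RNA, and in sheep 185 and 255 too the epicardial value was above the subcutaneous one (-2.87 ± 0.35, adjusted p = 0.00351). The part of heart muscle was not tested. PRDM16, a switch of brown fat identity, was at 1.35, 1.299, 1.06 and 3.08 CPM in subcutaneous and 16.2, 25.5, 14.4 and 12.4 CPM in epicardial fat. Sheep 185 was highest in epicardial fat (-3.25 ± 0.46, adjusted p = 0.00771), and the part of heart muscle was not tested here either. The early B cell factor EBF2 was lower too (-1.10 ± 0.22, adjusted p = 0.0327). UCP1, which uncouples respiration to make heat, had no count in subcutaneous fat and was at 0, 0.201, 8.18 and 0 CPM in epicardial fat, nearly all of it in sheep 233, and was not tested. CPT1B (-1.70 ± 0.45, adjusted p = 0.0886) and the thyroid hormone activator DIO2 (-1.31 ± 0.48, adjusted p = 0.219) did not pass.

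The metabolic lists gave isolated calls. Stearoyl-CoA desaturase (SCD) was at 8.09, 7.27, 3.78 and 10.7 CPM in subcutaneous and 2.401, 0.402, 0.963 and 0.564 CPM in epicardial fat. It was low throughout, did not overlap (3.14 ± 0.59, adjusted p = 0.0251), and was the only 1 of 24 lipogenesis genes to pass. DGAT2, which makes triglyceride (-1.58 ± 0.45, adjusted p = 0.111), and fatty acid synthase (FASN, 0.49 ± 0.32, adjusted p = 0.53) did not pass. Among 19 genes of fatty acid uptake the acyl-CoA synthetase ACSL4 was higher (0.99 ± 0.21, adjusted p = 0.0421), and LPL was lower. DECR1, which prepares unsaturated fatty acids for oxidation, was the 1 of 20 oxidation genes to pass (-1.46 ± 0.31, adjusted p = 0.0381).

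Catalase (CAT), which breaks down hydrogen peroxide, was at 758, 957, 1068 and 1268 CPM in subcutaneous and 247, 345, 262 and 571 CPM in epicardial fat. Every subcutaneous library lay above every epicardial one (1.57 ± 0.25, adjusted p = 0.0115). CAT and GCLC, the first enzyme of glutathione synthesis (0.98 ± 0.21, adjusted p = 0.0443), were the 2 of 22 antioxidant genes that passed. The oxygen-regulated transcription factor HIF1A was at 199.5, 239.8, 359 and 332 CPM in subcutaneous and 87.02, 106, 110.2 and 162 CPM in epicardial fat. It did not overlap either (1.28 ± 0.23, adjusted p = 0.0203) and was the 1 of 23 hypoxia and angiogenesis genes to pass.

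Nuclear subunits of oxidative phosphorylation gave 0 calls of 24 by edgeR, while 23 of the 24 had a negative change and the median was -0.51. The complex I subunit NDUFS1, picked after its values were seen, was at 25.6, 43.1, 35.1 and 31.7 CPM in subcutaneous and 215, 63.5, 71.7 and 46.5 CPM in epicardial fat. Its highest value was in the epicardial library of sheep 48, where heart muscle transcripts summed to 33768 CPM (-1.20 ± 0.38, adjusted p = 0.151). The part of heart muscle in this list was not tested.

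**Figure D4:**
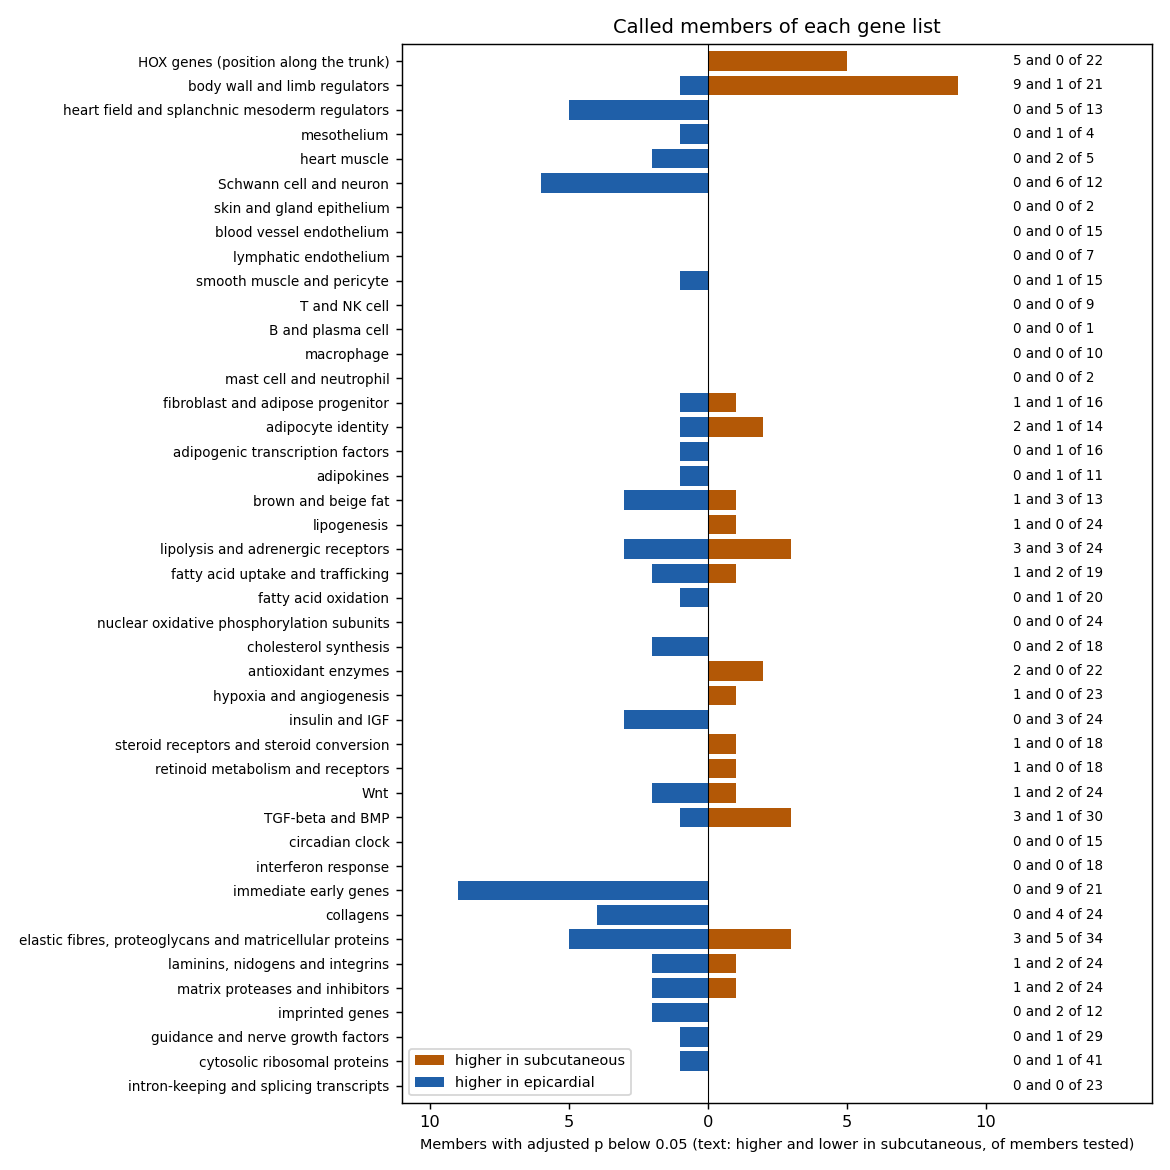
Number of members of each of 43 gene lists with an adjusted p under 0.05 that were higher in subcutaneous (orange, to the right) or in epicardial fat (blue, to the left), with both counts and the number tested printed at the right. The longest bars are 9 of 21 body wall and limb regulators to the right and 9 of 21 immediate early genes to the left.

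Among secreted signals, BMP5 and BMP2, ligands of the bone morphogenetic protein family, were higher in subcutaneous fat. BMP5 stood at 49.9, 51.95, 102 and 60.6 CPM in subcutaneous and 9.603, 7.63, 9.15 and 10.3 CPM in epicardial fat. It varied little in epicardial fat (2.79 ± 0.27, adjusted p = 0.00153). BMP2 was at 17.5, 37.7, 29.9 and 47.1 CPM in subcutaneous and 9.003, 7.23, 12.5 and 11.5 CPM in epicardial fat, with no overlap (1.73 ± 0.31, adjusted p = 0.0199). The BMP target ID4 was higher (1.02 ± 0.23, adjusted p = 0.0499), and LTBP1, which stores latent TGF-beta in the matrix, was lower (-2.03 ± 0.35, adjusted p = 0.0168). Of 30 TGF-beta and BMP genes tested 3 were thus higher and 1 lower, with a median of 0.22. BMP2 and ID4 did not pass without sheep 185 (adjusted p = 0.141 and 0.247) or without sheep 255 (adjusted p = 0.115 and 0.225). ID4 did not pass without sheep 233 either (adjusted p = 0.145).

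In the Wnt list 1 of 24 genes was higher and 2 were lower. RSPO3, which amplifies Wnt signals, was at 154, 218, 44.6 and 33.7 CPM in subcutaneous and 24.6, 20.1, 13 and 14.1 CPM in epicardial fat. Sheep 48 and 185 were well above sheep 233 and 255 in subcutaneous fat (2.30 ± 0.37, adjusted p = 0.0126). RSPO3 did not pass without sheep 185, with no block or without the 2 doubted libraries (adjusted p = 0.0512, 0.0589 and 0.182). SFRP1 (-1.76 ± 0.31, adjusted p = 0.0182) and DKK3 (-2.84 ± 0.51, adjusted p = 0.0203), from families of secreted Wnt inhibitors, were lower. DKK3 did not pass without sheep 48, 185 or 233, where its change was -2.65, -2.83 and -2.31 (adjusted p = 0.0831, 0.0735 and 0.0718). It did not pass either with no replicate block (adjusted p = 0.0547). APCDD1, a membrane inhibitor of Wnt signalling outside the list, stood at 251, 285, 411 and 294 CPM in subcutaneous and 35.4, 34.1, 54.9 and 98.2 CPM in epicardial fat. No libraries overlapped (2.59 ± 0.31, adjusted p = 0.00335).

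The insulin and IGF list had 3 of 24 members lower in subcutaneous fat. IGF1 stood at 286, 96.6, 104 and 189 CPM in subcutaneous and 480.1, 908, 1134 and 1018 CPM in epicardial fat. Sheep 48 had the highest subcutaneous and the lowest epicardial value (-2.51 ± 0.45, adjusted p = 0.0207). IGFBP5, a binding protein of IGF1, was at 1000, 733, 2556 and 2454 CPM in subcutaneous and 5322, 3767, 7637 and 5224 CPM in epicardial fat. The depots did not overlap (-1.86 ± 0.29, adjusted p = 0.0115), but without the 2 doubted libraries IGFBP5 did not pass (adjusted p = 0.104). GRB14, an adaptor that inhibits the insulin receptor, was at 1.35, 1.82, 0 and 0.724 CPM in subcutaneous and 12.6, 26.9, 44.3 and 13.7 CPM in epicardial fat, low in all subcutaneous libraries (-4.98 ± 0.73, adjusted p = 0.00867). The insulin receptor (INSR, -0.02 ± 0.26, adjusted p = 0.987) and IGF2 (0.30 ± 0.35, adjusted p = 0.762) overlapped. IGFBP3 was at 346, 257, 522 and 241 CPM in subcutaneous and 64.2, 85.2, 63.1 and 257 CPM in epicardial fat. Sheep 255 alone had nearly the same level in both depots (1.76 ± 0.47, adjusted p = 0.0914), and without the 2 doubted libraries the gene passed (adjusted p = 0.00545). Among 11 adipokines, angiotensinogen (AGT), the precursor of angiotensin, passed as lower (-3.26 ± 0.43, adjusted p = 0.00525).

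Among steroid genes, the estrogen receptor ESR1 was at 51.2, 24.2, 43.9 and 42.2 CPM in subcutaneous and 33.6, 64.7, 51.99 and 60.4 CPM in epicardial fat. Its depots overlapped (-0.43 ± 0.32, adjusted p = 0.592). The progesterone receptor PGR (-0.07 ± 0.31, adjusted p = 0.946) and the glucocorticoid receptor NR3C1 (0.45 ± 0.22, adjusted p = 0.368) did not pass. HSD11B1, the enzyme that regenerates active glucocorticoid, was at 87.6, 92.7, 238 and 136 CPM in subcutaneous and 35.4, 39.4, 54.9 and 78.4 CPM in epicardial fat. It was the 1 of 18 steroid genes that passed (1.36 ± 0.26, adjusted p = 0.0274), and it lost its call without sheep 185, 233 or 255 (adjusted p = 0.132, 0.0722 and 0.0553). RARRES1, a retinoid-responsive gene, was the 1 of 18 retinoid genes to pass (1.64 ± 0.28, adjusted p = 0.0168), and the retinal dehydrogenase ALDH1A1 did not (-1.21 ± 0.33, adjusted p = 0.0914). Of 15 clock genes and 18 interferon response genes, edgeR called 0 in either direction.

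Immediate early genes are switched on within minutes by growth signals and by handling of tissue. Of 21 tested, 9 were lower in subcutaneous fat, against 1.84% of all genes, and 0 were higher, with a median of -1.24. FOS stood at 4.04, 6.49, 13.3 and 13.8 CPM in subcutaneous and 246, 52.6, 229 and 124 CPM in epicardial fat. Every epicardial value was far above the subcutaneous ones, most of all in sheep 48 and 233 (-3.80 ± 0.39, adjusted p = 0.00246). JUNB, its partner in AP-1, was at 40.4, 32.99, 70.8 and 57.9 CPM in subcutaneous and 121, 111, 210.3 and 190.3 CPM in epicardial fat, with no overlap (-1.66 ± 0.21, adjusted p = 0.00452). EGR3 (-2.63 ± 0.32, adjusted p = 0.00377) and the phosphatase DUSP1 (-1.58 ± 0.22, adjusted p = 0.00752) were lower too, and JUN, ATF3, NR4A1, NR4A2 and DUSP2 complete the 9. MYC overlapped between depots (-0.04 ± 0.27, adjusted p = 0.971). Without sheep 255, 4 of 20 were lower, against 1.53% of all genes, and without the 2 doubted libraries 8 of 21, against 2.41%. The order in which depots were taken out is not given in the labels, and its part was not tested.

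In the matrix, 4 of 24 collagen genes were lower in subcutaneous fat and 0 higher, with a median of -0.41. COL8A1, a network-forming chain of vessel walls, was at 60.6, 292, 182 and 83.8 CPM in subcutaneous and 420.1, 569.9, 519 and 267 CPM in epicardial fat. Only sheep 185 reached into the epicardial range (-1.70 ± 0.31, adjusted p = 0.0203). COL27A1 (-2.69 ± 0.48, adjusted p = 0.0199), COL6A6 (-1.88 ± 0.34, adjusted p = 0.0203) and COL28A1 (-3.26 ± 0.59, adjusted p = 0.0206) were the others. COL1A1, a chain of the main fibrillar collagen, stood at 186, 122, 353 and 228 CPM in subcutaneous and 444, 502, 404 and 429 CPM in epicardial fat. The depots did not overlap, and it did not pass (-1.10 ± 0.31, adjusted p = 0.11).

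Matrix Gla protein (MGP), an inhibitor of calcification, was at 573, 437, 704 and 326 CPM in subcutaneous and 2920, 2484, 3801 and 2479 CPM in epicardial fat. Each sheep held several times more in epicardial fat (-2.55 ± 0.24, adjusted p = 0.00153). Of 34 elastic fibre, proteoglycan and matricellular genes 3 were higher and 5 lower. CCN3, a matricellular protein, was at 167, 949.5, 517 and 481 CPM in subcutaneous and 52.2, 66.1, 28.9 and 113 CPM in epicardial fat. Sheep 48 was lowest in subcutaneous fat (2.95 ± 0.44, adjusted p = 0.00923). The thrombospondins THBS1 (2.00 ± 0.31, adjusted p = 0.0115) and THBS2 (1.61 ± 0.35, adjusted p = 0.0442) were the other higher genes. Osteopontin (SPP1) was lower, at 16.2, 7.01, 16.8 and 26.8 CPM in subcutaneous and 106, 42.6, 220.0 and 68.6 CPM in epicardial fat, with sheep 233 highest in epicardial fat (-2.59 ± 0.38, adjusted p = 0.00867). SPP1 did not pass without the 2 doubted libraries (adjusted p = 0.0958). The proteoglycans PRELP (-1.37 ± 0.26, adjusted p = 0.0274) and LUM and the elastic fibre proteins EFEMP2 (-1.54 ± 0.32, adjusted p = 0.0347) and EFEMP1 (-1.46 ± 0.32, adjusted p = 0.0452) were lower too.

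Of 24 laminin, nidogen and integrin genes, the laminin chain LAMA2 (-1.33 ± 0.22, adjusted p = 0.0139) and the laminin receptor subunit ITGA7 (-1.27 ± 0.28, adjusted p = 0.0439) were lower, and the collagen receptor subunit ITGA2 was higher (1.54 ± 0.31, adjusted p = 0.0335). Among 24 proteases and inhibitors, ADAMTS5, which cuts proteoglycans, was at 921, 454, 944 and 547 CPM in subcutaneous and 228, 145, 295 and 229 CPM in epicardial fat. No libraries overlapped (1.65 ± 0.24, adjusted p = 0.00867). PCOLCE2, an enhancer of procollagen processing (-1.52 ± 0.24, adjusted p = 0.0126), and SERPINF1, an inhibitor of vessel growth (-1.19 ± 0.24, adjusted p = 0.0343), were lower.

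Some of the genes with the lowest adjusted p belonged to no list. The serine protease PRSS23 was at 152, 111, 192 and 119 CPM in subcutaneous and 39.6, 17.9, 41.9 and 38.7 CPM in epicardial fat. It was higher in subcutaneous fat in every sheep, with sheep 185 lowest in both depots (2.09 ± 0.24, adjusted p = 0.00325). GPNMB, a glycoprotein of lysosome-rich cells, was at 39.1, 45.2, 135 and 178 CPM in subcutaneous and 1.2, 4.82, 14.9 and 19.4 CPM in epicardial fat. Sheep 48 and 185 were low and sheep 233 and 255 high in both depots (3.38 ± 0.30, adjusted p = 0.00135). The gene did not pass with no block (adjusted p = 0.0653) or without the 2 doubted libraries (adjusted p = 0.0625). S100A4, a calcium-binding protein of fibroblasts and leukocytes, was at 516, 224, 526 and 614 CPM in subcutaneous and 68.4, 87.6, 79.9 and 97.98 CPM in epicardial fat. Its epicardial values lay close together (2.41 ± 0.32, adjusted p = 0.005). C2CD2 (1.74 ± 0.22, adjusted p = 0.00452) and the neurodevelopmental gene AUTS2 (1.91 ± 0.24, adjusted p = 0.00452) were higher too.

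DLK1, an imprinted factor that holds preadipocytes back from differentiating, had no count in any subcutaneous library and stood at 147, 169.5, 155 and 258 CPM in epicardial fat. Against a floor of 3 counts over the 4 subcutaneous libraries it was at least 1105-fold lower there (pooled 198 CPM in epicardial fat, adjusted p = 0.00103). PEG3, another imprinted gene, was at 49.9, 38.97, 75.3 and 133 CPM in subcutaneous and 178, 212, 158 and 218 CPM in epicardial fat. Its ratio was smallest in sheep 255 (-1.49 ± 0.31, adjusted p = 0.0365). These were the 2 of 12 imprinted genes that passed. The guidance factor SLIT2 was at 1.35, 1.82, 3.78 and 2.54 CPM in subcutaneous and 22.8, 21.7, 38.03 and 23.7 CPM in epicardial fat. It was low in all subcutaneous libraries (-3.41 ± 0.31, adjusted p = 0.00143) and was the 1 of 29 guidance and nerve growth factor genes to pass. RPL4 (-1.08 ± 0.23, adjusted p = 0.0421) was the 1 of 41 ribosomal protein genes, and 0 of 23 splicing transcripts passed, although their sum stood apart in the subcutaneous library of sheep 48.

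The same contrast in the 4 control sheep, which shares no library with this one, called 2205 of 12412 genes (17.8%; 1040 higher and 1165 lower in subcutaneous fat). Of the 361 genes called in testosterone sheep, 312 were called in control sheep, all in the same direction. That is 86.4% of the testosterone calls and 14.2% of the control calls. Of the 354 genes tested in both, 352 had the same sign. The exceptions, named after their values were seen, were the joint lubricant PRG4, at 3.12 ± 0.49 against -0.56 ± 1.12 in controls, and the endoplasmic reticulum protein REEP1, at -1.82 ± 0.40 against 0.09 ± 0.39. The median SE of a log2 fold change was 0.308 in testosterone and 0.212 in control sheep.

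Members described above had control changes of 7.06 ± 0.30 for IRX2, -3.95 ± 0.20 for SOX9, -1.93 ± 0.24 for LPL, -2.81 ± 0.57 for ADRB3, -3.29 ± 0.16 for FOS and 2.09 ± 0.27 for BMP5. For HOXC6 the control change was 8.91 ± 0.35, and no control epicardial library held more than 0.916 CPM of it. In controls 19 of 21 tested HOX genes were higher, against 8.38% of all genes. Control epicardial libraries also held heart muscle transcripts, at 140.7 to 24210 CPM in sum.

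**Figure D5:**
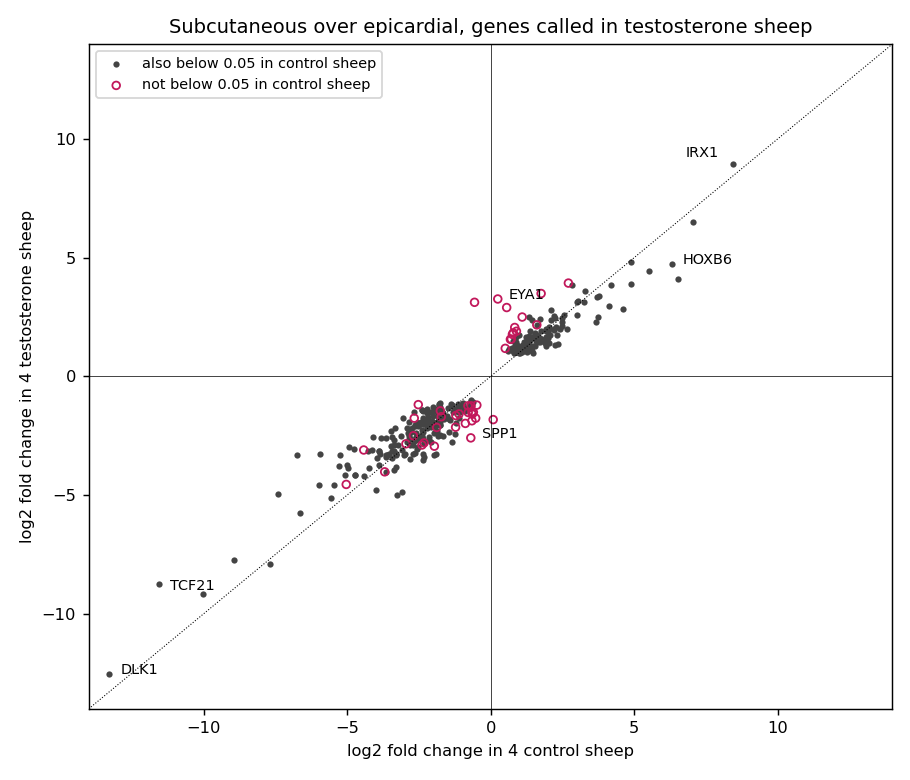
Log2 fold change of subcutaneous over epicardial fat in 4 testosterone sheep (y axis) against that in 4 control sheep (x axis) for the called genes of testosterone sheep that were tested in both; filled points also passed in control sheep and the dotted line marks equal values. All but 2 of 354 points lie in the quadrants of equal sign.

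Whether the depot difference itself depended on treatment was tested on the 16 subcutaneous and epicardial libraries of both groups. Of 13408 genes, 0 passed by edgeR (0%; 332 had an unadjusted p under 0.05) and 0 by DESeq2 (318 under 0.05). Without the 2 doubted libraries 0 passed (925 under 0.05). The lowest unadjusted p belonged to elastin (ELN), the core of elastic fibres, at 17.5, 28.3, 15.7 and 12.7 CPM in subcutaneous and 33.6, 39.8, 32.7 and 37.2 CPM in epicardial fat in testosterone sheep. Control sheep held 67.5 to 125 CPM in subcutaneous and 39.8 to 74.1 CPM in epicardial fat. The depot change of ELN was -1.01 ± 0.26 in testosterone and 0.93 ± 0.25 in control sheep, a difference of -1.95 ± 0.38 (edgeR unadjusted p = 1.77e-04, adjusted p = 1).

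EYA1 had a change of 3.26 ± 0.48 in testosterone and 0.25 ± 0.41 in control sheep, where subcutaneous libraries held 2.64 to 13.9 CPM and epicardial ones 2.38 to 6.89 CPM. The difference was 3.04 ± 0.65 (edgeR unadjusted p = 4.22e-04, adjusted p = 1). For LPL the difference between treatments was -0.12 ± 0.38, for SOX9 0.53 ± 0.30, for BMP5 0.70 ± 0.38, for PPARGC1A 0.47 ± 0.79 and for HOXC6 -3.92 ± 2.25. The count of 0 does not show that the depots differ equally in both groups, since for PPARGC1A and HOXC6 differences of 1 log2 unit lie within these errors.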

How the data were processed

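The sheep, depots and treatments come from the labels. The authors deposited a table of raw counts per gene, the unit used here; the tools named, per the submitters' processing notes and without their roles, are STAR, featureCounts 1.6.1, Trimmomatic 0.36, FastQC 0.11.5, MultiQC 0.9, DESeq2 1.24.0 and R 3.6.3. The sources used here give no genome build, annotation or strand setting, so genes that overlap or have near-identical copies are uncertain. The 3′ kit gives no length-corrected levels. Counts were tested with edgeR 4.0.16 (R 4.3.3; TMM factors, filterByExpr with a minimum count of 10, robust quasi-likelihood fit, sheep as block), with a false discovery rate of 0.05. SE is |log2 fold change| over the root of the F statistic. CPM use TMM factors over all 32 libraries. DESeq2 1.42.0 was an alternative. The edgeR fit was tested on simulated counts.

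The sheep numbers pair the libraries because both depots come from 1 animal. Deviations of paired libraries from their depot means correlated at 0.105, 0.333, -0.0426 and 0.192. Subcutaneous fat of sheep 48 correlated better with epicardial fat of sheep 233 (0.138) than with its own. Subcutaneous fat of sheep 233 did so with epicardial fat of sheep 255 (0.174). In control sheep each animal's own pair was highest, at 0.177 to 0.336. The block thus rests on the labels, not on these correlations. No replicates were identical. Of 10441 numbered loci 406 took a symbol from RefSeq's table (ARS-UI_Ramb_v3.0). Genes named are the 12 with the lowest adjusted p in each direction (with a symbol, no overlap and a mean of at least 10 CPM in the higher depot), up to 4 passing members of each list in each direction and its best known members, genes at 0 in 1 depot, genes behind the library checks, and a few more chosen after their values were seen. Some genes that these rules pick are not reported here. The 45 lists and the members were chosen with earlier results of these data known. The 4 animals a group are separate sheep.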

Additional observations from a re-analysis of the deposited data

Results flagged for a closer look

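In 96 groups of 4 libraries, 20 had 1 library far from the other 3, where chance gives about 1 in 20. In the subcutaneous library of sheep 48 these were ARGLU1 (26343 CPM), the splicing transcripts in sum (68585 CPM), the smooth muscle and pericyte markers in sum (10210 CPM), the skeletal muscle markers in sum (20.22 CPM), all high, the Schwann cell and neuron markers in sum (401.6 CPM), which were low, HOXC11 (6.739 CPM) and TCF21 (2.696 CPM), the last from a library of 784135 counts. In the epicardial library of sheep 48 they were the heart muscle sum (33768 CPM), the skin and gland epithelium sum (443.5 CPM), MYL2 (5646 CPM), TNNI3 (3163 CPM) and MYL7 (1853 CPM). In the epicardial library of sheep 255 they were the trunk genes HOXC6 (94.6 CPM) and HOXB6 (8.839 CPM). PRSS23 was low in epicardial fat of sheep 185 (17.87 CPM), SLIT2 was high in epicardial fat of sheep 233 (38.03 CPM), and UNC13C stood apart in subcutaneous fat of sheep 255 (1.448 CPM). Marker sums also stood high for lymphatic endothelium in subcutaneous fat of sheep 233 (329.7 CPM), for B and plasma cells in subcutaneous fat of sheep 255 (313.8 CPM) and for kidney and adrenal in epicardial fat of sheep 233 (5.295 CPM). The calls of PRSS23, SLIT2, UNC13C and TCF21 passed without the sheep in question.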

How the results depend on the processing

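The 361 calls (134 higher, 227 lower) became 747 (307 and 440) with DESeq2, 953 (341 and 612) with no filter on low counts, 224 (89 and 135) with no replicate block, 582 (282 and 300) without the 2 doubted libraries and with no replicate block, 881 (401 and 480) with the replicate block on sheep 185 and 233 alone, and 1418 (567 and 851) when all 32 libraries shared one fit. DESeq2 included all 361. DESeq2's size factors in edgeR gave 366. Leaving out 1 sheep with its pair gave 104 to 372 calls (30 to 144 higher, 74 to 228 lower), lowest without sheep 185 (104) and sheep 233 (211). Leaving out 1 library with no replicate block gave 90 to 351 (27 to 139 higher, 56 to 212 lower): 125 (43 and 82), 90 (33 and 57) and 96 (40 and 56) without the subcutaneous library of sheep 185, 233 or 255, and 121 (34 and 87), 120 (27 and 93) and 93 (28 and 65) without the epicardial library of sheep 48, 185 or 233. In control sheep the range was 1276 to 1715, lowest without sheep 201. The dependence on treatment gave 1 gene with no filter, STRIT1 (9.14, SE 1.11, edgeR adjusted p = 3.24e-04). Its counts summed to 13 and 3 in subcutaneous and epicardial fat of testosterone sheep and 5 and 563 in controls. The control epicardial libraries were uneven, from 0 to 128 CPM of STRIT1. Other settings gave 0, among them leaving out each control sheep, which was added after seeing the data. Over up to 19 alternatives, 0 of 102 named genes that were called changed sign, and 17 of 61 that were not called did. The causes were not tested, except that fewer sheep entered each fit without one. The subcutaneous library of sheep 48, with 784135 counts, sets the coarsest step, so that genes under a few CPM rest on the other sheep.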
